A study of Mus musculus with 12 samples.

Results

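Old and young mouse bone marrow progenitors were compared across both Wt1 genotypes: 6 libraries labelled old against 6 labelled young, which are all 12 libraries of the series, with genotype held as a blocking term. RNA was read from the 3′ ends of transcripts in sorted live cells that lacked lineage markers and Sca1 and carried c-Kit. The old libraries were 3 from mice with both Wt1 alleles intact (Mx+ Wt1+/+, called old control here) and 3 from mice with 1 floxed allele (Mx+ Wt1fl/+, old het). The young libraries were 3 and 3 of the same genotypes, called young control and young het. Every mouse was Mx+, the labels name no treatment and no recombination step, and they give no age in weeks, sex or batch. Each old library is also labelled chronic and each young library acute, so age cannot be told apart from whatever those words stand for. The labels do not say that the 3 libraries of a group came from separate mice, so the p-values below measure the spread between these libraries, which may be technical.

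Myeloid progenitors of this gate give rise to granulocytes, monocytes, basophils, red cells and platelets. Aged mouse marrow is known for a stem cell pool that leans towards myeloid and platelet output and for reduced production of lymphoid cells and, under stress, of red cells. Immediate early genes such as Fos are switched on within minutes by growth factors, cytokines and also by handling of the tissue.

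Total counts ran from 645460 to 9645502 per library. Kit and the granulocyte, erythroid and megakaryocyte progenitor genes of the gate check had counts in every library. Markers of other cells varied: Cdh5 of endothelium had no counts and Cd79a, Cd3e and Cd3g had counts in 1 library each, but the B cell genes Ms4a1 and Ighm had counts in 9 and 11 libraries, Cd3d of T cells in 11, C1qa of macrophages in 8 and Cxcl12 of stroma in 7. Igkc, an immunoglobulin light chain, had counts in 11 (up to 26.6 CPM, counts scaled to library size) and Pecam1, which endothelium and also blood progenitors carry, in all 12 (15.1 to 63.6 CPM). Transcripts of mature neutrophils, which the lineage stain should remove, were counted in all 12 (Ngp, Ltf, S100a8, S100a9 and Camp). The red cell globin genes Hba-a1 and Hbb-b1, which the gate should also lack, were counted in all 12 too. Hba-a1 stood at 1.97 to 17.7 CPM in old and 14.7 to 62.5 in young libraries, and Hbb-b1 at 0.401 to 117 and 13.7 to 48.5. Wt1 was counted 1 to 23 times per library and was not tested. Xist RNA stood at 616 to 2133 CPM in old het 1, young control 3 and young het 1, 2 and 3, where the Y-linked Ddx3y had 0 counts, and the other 7 libraries had Ddx3y counts. Xist therefore marked 1 of 6 old and 4 of 6 young libraries, among them every young het. The number in each library's title is also split by age, with 1 to 6 in the old and 18 to 30 in the young. Within the young, young control 3 and the young hets, all marked by Xist, are numbered 18 to 21. Young controls 1 and 2, with Ddx3y counts, are numbered 29 and 30.

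Of 10604 tested genes, 136 (1.28%) passed an adjusted p of 0.05 in the shared comparison by edgeR's quasi-likelihood test. Of these, 40 were higher in old (0.377% of tested genes) and 96 lower (0.905%). By sign alone, 6026 of the 10604 tested genes were higher in old and 4578 lower. The counts of list members given below are to be read against these shares. Changes are given as log2 change, old minus young, with the standard error (SE) and the adjusted p, and levels in CPM. The same sign held in both genotypes for all 136, a property the shared fit favours, and the change was larger in controls for 118 of them. In 88 of the 136 genes (64.7%) every old library lay on the same side of every young library within each genotype, against 370 of all tested genes (3.49%). Because the call and the separation use the same libraries, that share is a description. Leaving out 1 library at a time gave between 14 genes (without old control 2) and 301 (without young het 1). Of the 60 passing genes whose alternatives were computed, 13 kept their call in all 12 such fits, 12 of them lower and 1 (Ccnd1) higher in old. With the Xist level as a covariate 2 genes passed, Camp and SNORD86, and in the 7 libraries without Xist (5 old, 2 young) 766 passed, 87 of them among the 136. Those 7, with Xist at 3.04 CPM or less, hold no young het. Their old-young difference therefore rests on control libraries alone and is not of like kind with the shared comparison. The same holds for every value given below for these 7 libraries. The part of Xist in the individual results was not tested.

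**Figure D1:**
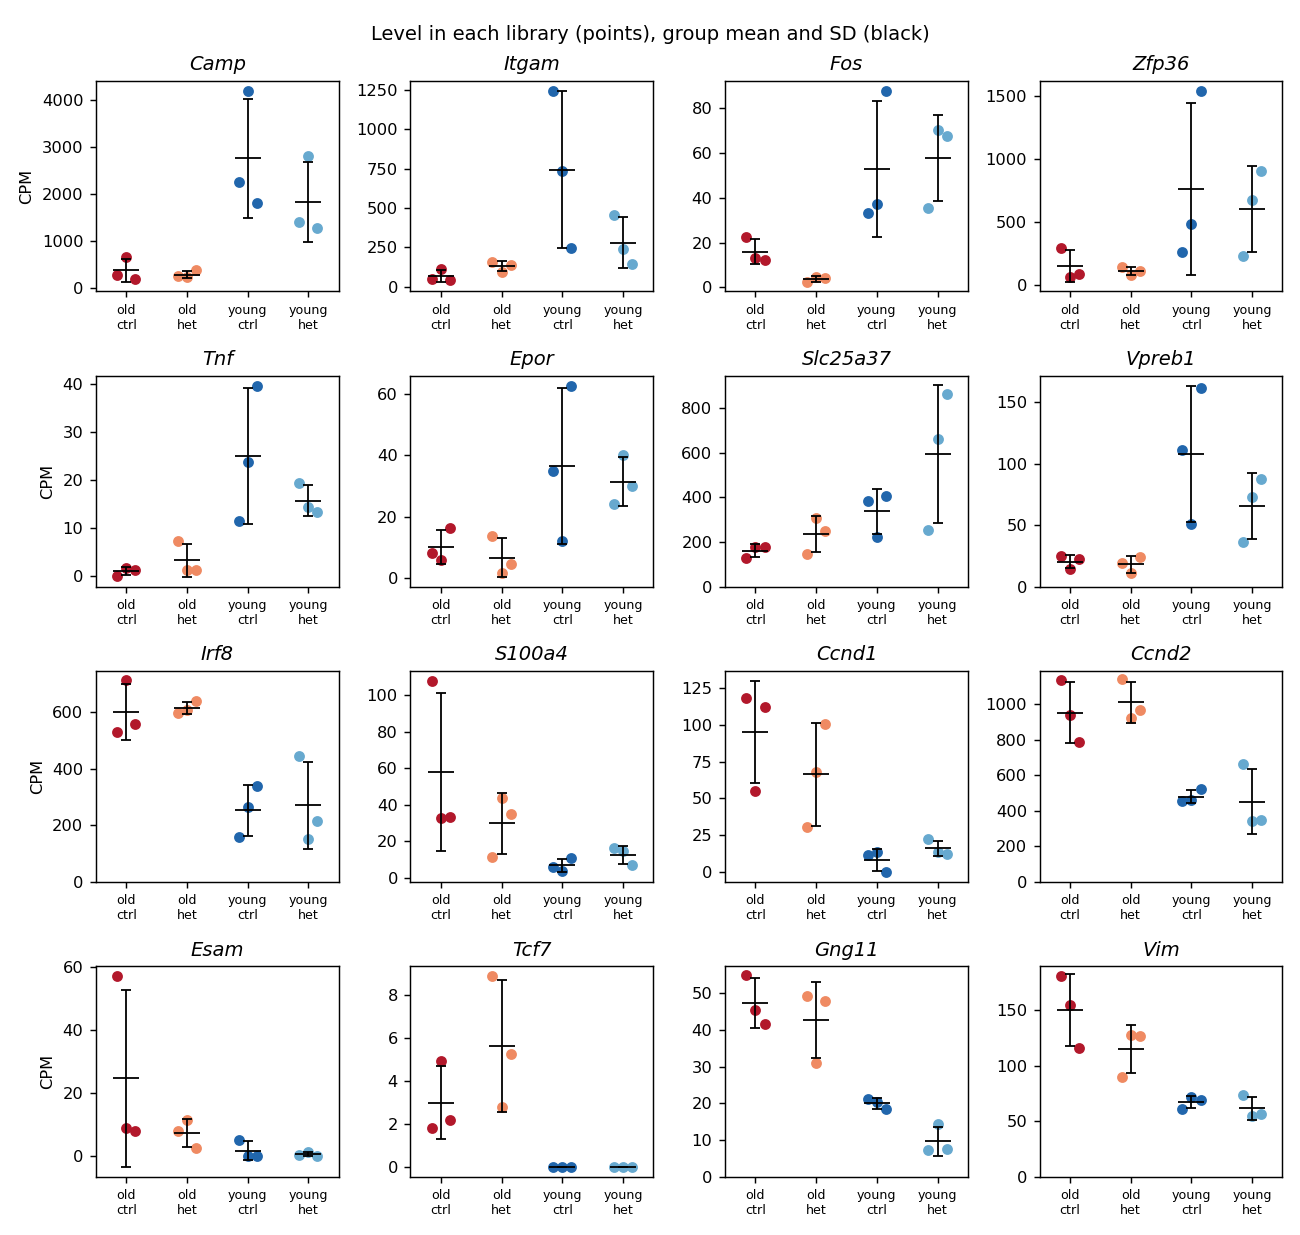
Levels in CPM (linear axes) of 16 genes in each of the 12 libraries, 3 points per group, grouped by age and genotype, with the group mean and SD in black. Camp lies between 203 and 662 in old and between 1284 and 4190 in young libraries, and Tcf7 is at 0 in all 6 young libraries.

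Genes of neutrophil granules and of phagocytes divided between falls and rises. Camp, which encodes the cathelicidin antimicrobial peptide of neutrophil secondary granules, stood at 203, 272 and 662 CPM (lowest, median and highest) in the old and 1284, 2036 and 4190 in the young libraries. No old library reached the lowest young one, in either genotype. Its change was -2.74 (SE 0.34, adjusted p = 0.0008), -2.84 in controls and -2.64 in hets. Camp was the 1 gene of the 60 that kept its call under all 26 alternatives, with changes from -3.09 to -2.49. Cd300lf, an inhibitory receptor of myeloid cells, measured 12.8, 27.2 and 45.3 CPM in old and 104, 137 and 203 in young, again without overlap. The fall was -2.36 (SE 0.32, adjusted p = 0.00192), and the adjusted p was 0.0641 with Xist as a covariate. Glrx, the cytosolic glutaredoxin that reduces protein disulphides, fell by 2.49 (SE 0.37, adjusted p = 0.00212), from 131, 184 and 585 CPM in young to 37.6, 52.1 and 59.2 in old. Cd300lf and Glrx are on none of the neutrophil and monocyte lists below and stand here as single genes.

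Itgam, the CD11b subunit of the complement receptor and itself a target of common lineage stains, was at 42.0, 104 and 157 CPM in old and 144, 352 and 1247 in young libraries. Old het 1 lay above the lowest young het, so the groups overlapped, and the call (-2.28 (SE 0.48, adjusted p = 0.0288)) was lost in 4 of the 12 leave-one-library fits, up to an adjusted p of 0.0926 without old control 2. Cybb, the catalytic subunit of the phagocyte NADPH oxidase, read 90.2, 202 and 301 CPM in old and 327, 414 and 661 in young and changed by -1.22 (SE 0.28, adjusted p = 0.035). The 12 old and young values of Cybb did not overlap, yet the call held in only 3 of the 12 leave-one-library fits.

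Among 14 tested genes of secondary granules and neutrophil maturation Camp alone passed, 8 were lower and 6 higher, and the median change was -0.24 (0.27 in controls, -1.11 in hets) against 0.11 over all tested genes. With 1 library left out that median ran from -0.81 (without old control 1) to -0.05 (without young het 1). The log2 difference was -1.43 (SE 0.43, adjusted p = 0.0963) for Ngp, -1.19 (SE 0.32, adjusted p = 0.0665) for S100a9 and -1.26 (SE 0.51, adjusted p = 0.227) for Ltf. It was -1.19 (SE 0.31, adjusted p = 0.0591) for Cebpe, the factor that drives late granulocyte maturation, and none of these 4 passed. Their list summed to between 2226 and 6133 CPM in old and between 5522 and 12711 in young libraries, and the part of mature neutrophils in the fall of Camp was not tested. Primary granule genes, made earlier in the lineage, had 24 of 28 members higher and none that passed (median 0.67; 0.91 in controls and 0.26 in hets; 0.44 without old control 2). The summed level of that list overlapped and had the lower median in old. It was 11267, 13969 and 23705 CPM in old and 7260, 15466 and 18110 in young libraries. Mpo, the myeloperoxidase gene, differed by 0.50 (SE 0.31, adjusted p = 0.439) and Elane, neutrophil elastase, by 0.84 (SE 0.38, adjusted p = 0.273).

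On the monocyte side, Irf8, the factor that commits progenitors to monocytes and dendritic cells, was at 531, 603 and 716 CPM in old and 152, 239 and 444 in young libraries. All 6 old libraries exceeded all 6 young ones. The rise was 1.22 (SE 0.27, adjusted p = 0.0328), alike in controls (1.25) and hets (1.19), though its adjusted p stayed under the threshold in only 2 of the 12 leave-one-library fits (up to an adjusted p of 0.102 without old control 2). S100a4, a calcium-binding protein of motile cells, measured 11.3, 34.0 and 108 CPM in old and 3.40, 8.84 and 16.1 in young. Old control 1 supplied the top value, and old het 1 fell among the young libraries. Its change was 2.08 (SE 0.50, adjusted p = 0.0457) and the call held in 3 of the 12 leave-one-library fits. Ccl9, a chemokine of the myeloid line, rose by 1.47 (SE 0.36, adjusted p = 0.0476), with 2.35 in controls and 0.69 in hets. That call held in 2 of the 12 leave-one-library fits. Ccl9 is not on the monocyte list and stands here as a single gene. Over the monocyte list 2 of 21 tested members rose (Irf8 and S100a4) and 2 fell (Itgam and Cybb), 15 were higher by sign, and the median was 0.88 (0.58 without young control 1 and 0.55 without young control 2). Summed, the list stood at 2260, 3505 and 4123 CPM in old and 2727, 3609 and 4653 in young libraries, with overlap. Genes of dendritic cells and MHC class II had none of 18 that passed and a median of 1.05, made of 2.04 in controls and 0.23 in hets. That median was 0.11 without old control 1, 0.58 without young control 2 and 0.50 without young control 3. The summed level was 742, 789 and 2072 CPM in old and 658, 948 and 1093 in young libraries, with the lower median in old. H2-Eb1 of that list reached 99.9 CPM in old control 1 and at most 8.40 in the other 11 libraries.

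Immediate early genes were led by Fos, which was the 1 gene that passed in both genotypes. Fos encodes the partner of JUN proteins in the AP-1 transcription factor. It was read at 2.43, 8.60 and 22.4 CPM in old and 33.4, 52.5 and 87.9 in young libraries. The 3 old hets were lowest at 2.43, 4.81 and 3.94, the 3 old controls stood between 12.4 and 22.4, and every young library lay above them all. The shared change was -2.71 (SE 0.47, adjusted p = 0.00978), -1.73 in controls (adjusted p = 0.0462) and -3.90 in hets (adjusted p = 0.0176). Within hets it was the single gene of 10604 that passed (0.00943%). In the 7 libraries without Xist, which hold no young het, the change was -1.16 and did not pass (adjusted p = 0.187).

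Jund, another AP-1 subunit, was at 38.1, 54.3 and 115 CPM in old and 152, 202 and 433 in young and fell by 1.80 (SE 0.34, adjusted p = 0.0159). Zfp36 encodes tristetraprolin, which binds AU-rich elements and speeds the decay of cytokine messenger RNA. It was at 69.5, 102 and 299 CPM in old and 235, 578 and 1541 in young, where old control 1 lay above the lowest young library, and its change was -2.36 (SE 0.44, adjusted p = 0.0153). Tnf, the inflammatory cytokine whose messenger RNA is a known target of tristetraprolin, read 0, 1.32 and 7.28 CPM in old and 11.4, 17.0 and 39.7 in young. Old het 1 held the highest old value of Tnf, still below every young library. The change of Tnf was -3.51 (SE 0.85, adjusted p = 0.0449), and the call held in 2 of the 12 leave-one-library fits (up to an adjusted p of 0.119 without old control 2). A link between Zfp36 and Tnf was not tested. In the list of NF-kB and inflammatory signalling 1 of 25 tested members fell and none rose, with 15 higher and 10 lower by sign. The median of that list was 0.25 (0.39 in controls, -0.45 in hets). It summed to 1058, 1331 and 1439 CPM in old and 1412, 1825 and 3094 in young libraries. Fosb, with 0, 0.575 and 10.3 CPM in old and 0.759, 12.8 and 51.2 in young, differed by -3.39 (SE 1.05, adjusted p = 0.106) and did not pass. Over the immediate early list, 3 of 32 tested members fell, none rose, and 15 were higher and 17 lower by sign. The median was -0.20 (0.09 in controls, -0.46 in hets) against 0.11 over all tested genes. Members of the immediate early list summed to 1034, 1273 and 2098 CPM in old and 1320, 2136 and 3674 in young libraries, with overlap. With 1 library left out the median ran from -0.27 (without young control 1) to -0.09 (without young het 2), and it was 0.32 in the libraries without Xist. Young control 3, the library with the highest Fos, Fosb, Zfp36 and Jund, also had the highest share of small RNA, 0.793% of its counts.

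The start regions of Fos and Zfp36 are printed because both genes fell and both are textbook cases of rapid induction. Each window runs from 250 bases before to 50 after the RefSeq start of transcription on build GRCm38.p6, 5′ to 3′ on the gene's strand, and differs in build from the mm9 build named for the counts. Capitals mark exact matches, on either strand, to any of 8 motifs: TGANTCA for AP-1, TGACGTCA for CREB, CACGTG for the E-box of MYC and USF, CCGGAAG for ETS factors, AGATAA for the GATA family, CCAAT for NF-Y, GCGGGGGCG for EGR and WT1, and TTGCGCAA for C/EBP.
Fos (chr12:85473640-85473939, plus strand): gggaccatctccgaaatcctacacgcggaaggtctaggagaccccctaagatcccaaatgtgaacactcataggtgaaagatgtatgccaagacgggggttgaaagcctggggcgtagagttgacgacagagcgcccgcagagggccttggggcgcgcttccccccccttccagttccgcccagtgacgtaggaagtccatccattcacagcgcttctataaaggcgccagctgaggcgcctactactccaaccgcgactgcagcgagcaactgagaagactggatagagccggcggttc
Zfp36 (chr7:28379179-28379478, minus strand): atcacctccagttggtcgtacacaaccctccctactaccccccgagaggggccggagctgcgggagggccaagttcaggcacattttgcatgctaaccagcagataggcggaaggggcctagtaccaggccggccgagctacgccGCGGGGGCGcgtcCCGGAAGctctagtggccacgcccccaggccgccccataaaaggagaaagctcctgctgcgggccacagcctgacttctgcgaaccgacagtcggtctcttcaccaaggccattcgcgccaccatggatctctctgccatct
The Fos window held none of the 8 motifs. In Zfp36 an ETS match began 92 bases and an EGR and WT1 match 105 bases upstream of the start. Among 27025 promoter windows of this length, 9.08% held the ETS letters, 2.85% the EGR and WT1 letters and 7.91% the AP-1 letters. The matches describe letters and not binding.

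Erythroid genes stood lower in old libraries as a group. Of 28 tested members, all 28 had a change below 0 and 26 were lower in each genotype taken alone. The median was -1.16 (-0.86 in controls, -1.06 in hets) against 0.11 over all tested genes. A single member, Epor, passed, and 18 of 28 had an unadjusted p under 0.05 against 16.4% of all tested genes. Under 20 other settings the median stayed between -1.38 and -0.78 and between 24 and 28 members were lower. In bulk RNA, fewer erythroid progenitors and less of these RNAs per cell cannot be told apart. The part of carried-over red cells, whose globin RNA was counted in every library, was not tested. The list summed to between 1122 and 3852 CPM in old and between 2603 and 4020 in young libraries. Old control 3 held the old maximum, inside the young range.

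Epor encodes the erythropoietin receptor, on which late erythroid progenitors depend. Its level was 1.60, 6.98 and 16.4 CPM in old and 11.9, 32.4 and 62.7 in young libraries. Old control 3 (16.4) and old het 1 (13.7) lay above young control 2 (11.9), while in hets no old library reached a young one. The fall was -2.09 (SE 0.51, adjusted p = 0.0462), kept in 3 of the 12 leave-one-library fits (up to an adjusted p of 0.123 without old control 2), and -1.30 with an adjusted p of 0.294 in the libraries without Xist. The difference was -0.90 (SE 0.32, adjusted p = 0.168) for Gata1, the erythroid and megakaryocyte master regulator, and -1.28 (SE 0.40, adjusted p = 0.106) for Klf1, a factor that acts beside it. Slc4a1, the anion exchanger band 3 of the red cell membrane, differed by -3.28 (SE 0.99, adjusted p = 0.0974), at 0, 0.554 and 4.86 CPM in old and 3.40, 9.42 and 17.6 in young. None of these 3 passed.

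The start region of Epor, in the same frame as above, is shown for its GATA letters.
Epor (chr9:21963527-21963826, minus strand): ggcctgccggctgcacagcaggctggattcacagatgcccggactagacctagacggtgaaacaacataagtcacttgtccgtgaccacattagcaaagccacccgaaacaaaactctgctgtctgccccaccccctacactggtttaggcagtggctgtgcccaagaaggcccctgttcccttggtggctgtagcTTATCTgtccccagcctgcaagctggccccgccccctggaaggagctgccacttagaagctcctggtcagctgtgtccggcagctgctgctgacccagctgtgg
Its GATA match began 54 bases upstream of the start, and 11.3% of the 27025 windows held those letters.

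**Figure D2:**
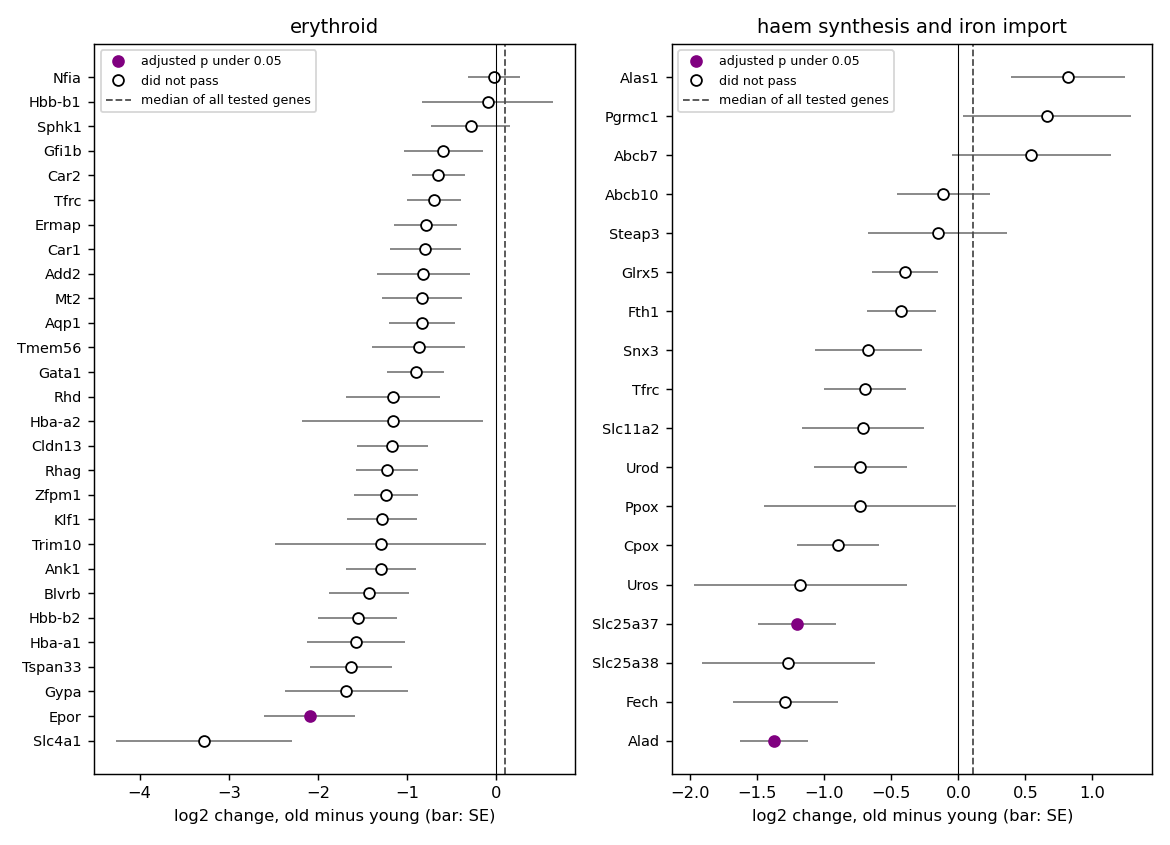
Log2 change, old minus young, of each tested member of the erythroid list (28 genes) and of the haem and iron list (18 genes shown), with SE as bars; filled points passed an adjusted p of 0.05 and the dashed line is the median of all tested genes, 0.11. All 28 erythroid points lie below 0, from -3.28 for Slc4a1 to -0.02 for Nfia, and in the second panel 15 of 18 do.

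Haem synthesis and iron import followed the same direction, with 2 of 19 tested members lower past the threshold, none higher, 16 lower by sign and a median of -0.71 (-0.47 in controls, -0.67 in hets). Alad, the second enzyme of haem synthesis, was at 67.7, 81.6 and 135 CPM in old and 177, 220 and 319 in young, with no overlap, and fell by 1.38 (SE 0.26, adjusted p = 0.0153). Slc25a37, mitoferrin, which carries iron into mitochondria, read 126, 178 and 308 CPM in old and 223, 396 and 864 in young and changed by -1.21 (SE 0.29, adjusted p = 0.0451). Its values overlapped, since old het 2 exceeded young control 2 and young het 1. The Slc25a37 call held in 3 of the 12 leave-one-library fits. Alas1, the form of the first enzyme used outside red cells, differed by 0.82 (SE 0.43, adjusted p = 0.353) and did not pass.

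The following 5 passing genes are on none of these lists, were picked after their values were seen and stand here as single genes. Epb4.9, dematin of the membrane skeleton, was at 2.20, 8.03 and 17.0 CPM in old and 39.3, 66.9 and 88.8 in young and fell by 3.06 (SE 0.43, adjusted p = 0.00196). It kept its call in all 12 leave-one-library fits. Spnb1, the erythroid beta spectrin, fell by 2.21 (SE 0.53, adjusted p = 0.0442) with old and young apart. Kel, a blood group antigen, changed by -2.27 (SE 0.54, adjusted p = 0.0412), Tspo2, an erythroid relative of the translocator protein, by -1.74 (SE 0.39, adjusted p = 0.0327) and Abcb6, a porphyrin transporter, by -1.49 (SE 0.37, adjusted p = 0.0496). Each of these 4 lost its call in at least 6 of the 12 leave-one-library fits.

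B lymphoid genes were lower in 10 of 15 tested members, with 2 falls past the threshold, no rise, and a median of -1.25 (-1.41 in controls, -0.60 in hets). Vpreb1, the surrogate light chain of the early B cell receptor, stood at 10.8, 20.8 and 24.5 CPM in old and 36.0, 80.5 and 162 in young libraries. No value overlapped, and the fall of 2.15 (SE 0.35, adjusted p = 0.00673) was kept in all 12 leave-one-library fits. Cd24a, the heat-stable antigen of early B cells and of erythroid and granulocyte precursors, changed by -1.36 (SE 0.28, adjusted p = 0.025). The Cd24a call held in 6 of the 12 leave-one-library fits (up to an adjusted p of 0.0926 without old control 2). Pax5, the B lineage commitment factor, differed by -2.75 (SE 0.73, adjusted p = 0.0635) and Ebf1, which acts before it, by -1.83 (SE 0.57, adjusted p = 0.106), and neither passed. The Ebf1 difference was -3.37 in controls and -0.31 in hets, and the difference between the genotypes did not pass (adjusted p = 0.106). Cd79a, a signalling chain of the B cell receptor, was at 0 in all 6 old libraries and had 2 counts in 1 young library (0.300 CPM). Of T and NK cell genes, 1 of 6 tested rose. That gene, Tcf7, encodes a transcription factor of T cell and lymphoid progenitors and was counted 5 to 21 times in each old library and 0 times in every young one. The old level was at least 27.0-fold higher against a floor of 3 counts over the 6 young libraries (adjusted p = 0.0449). Its call held in 1 of the 12 leave-one-library fits (up to an adjusted p of 0.126 without old control 2). Of the CD3 chains of the T cell receptor, Cd3d was at 0, 1.91 and 7.05 CPM in old and 1.01, 5.33 and 10.7 in young and did not pass (-1.16 (SE 0.98, adjusted p = 0.602)), and Cd3e and Cd3g were each at 0 in every young and in 5 of the 6 old libraries. Without old control 2 the B lymphoid median was -0.70 and without young het 3 -0.71.

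**Figure D3:**
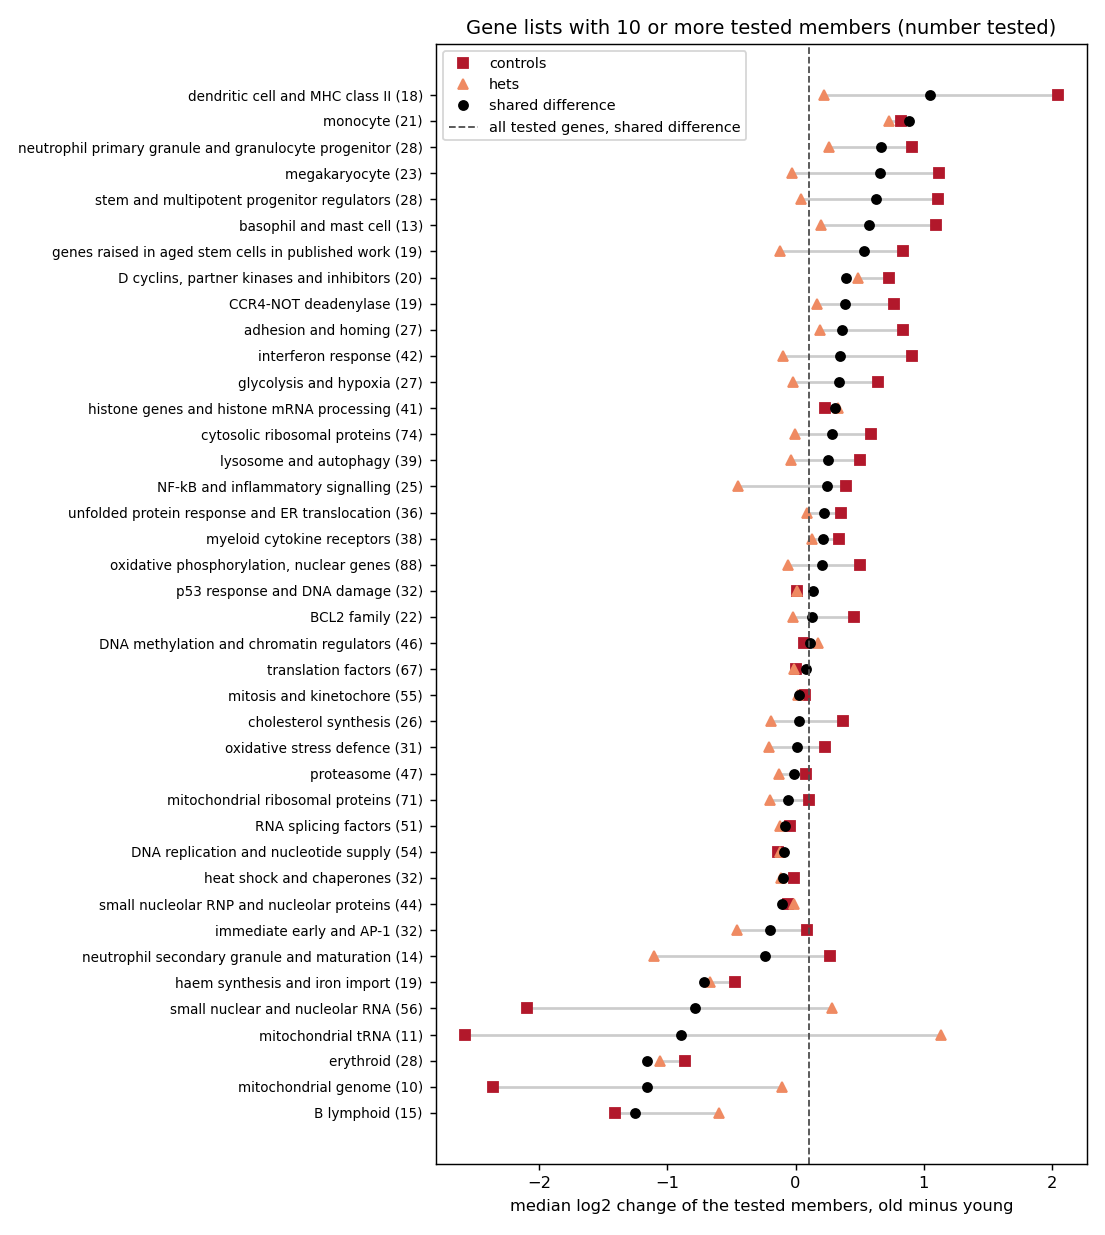
Median log2 change, old minus young, of the tested members of each gene list with 10 or more tested genes (number in brackets): squares for controls, triangles for hets, circles for the shared difference, and a dashed line at the shared median of all tested genes, 0.11. The erythroid, haem and monocyte lists have squares and triangles close together, and the mitochondrial, small RNA and MHC class II lists have them far apart.

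Cyclins D1 and D2 rose, and no gene of DNA replication or mitosis passed. Ccnd1, the cyclin D1 gene that couples mitogens to entry into the cell cycle, was at 30.7, 84.3 and 118 CPM in old and 0, 12.98 and 22.2 in young libraries. Every old library exceeded every young one, and young control 3 had 0 counts. The rise was 2.74 (SE 0.52, adjusted p = 0.0159), 3.62 in controls and 2.06 in hets. Ccnd2, cyclin D2, measured 786, 952 and 1142 CPM in old and 343, 459 and 663 in young, also without overlap, and rose by 1.08 (SE 0.23, adjusted p = 0.0312). That call held in 2 of the 12 leave-one-library fits. No other member of the 20 tested cyclin D partners and inhibitors passed (16 higher, median 0.39). Of 54 replication genes none passed (33 lower by sign, median -0.09), while their summed level lay between 7599 and 10957 CPM in old and between 11437 and 13887 in young libraries, without overlap. That sum weighs abundant genes most and was not tested. The D cyclin list summed to between 2030 and 2512 CPM in old and between 1286 and 1659 in young. This sum includes Ccnd1 and the abundant Ccnd2 (medians of 952 CPM in old and 459 in young), so it adds little beyond those genes, and was not tested. Of 55 mitotic genes none passed (median 0.03). Bax, the p53 target that permeabilises mitochondria in cell death, was at 43.3, 63.4 and 99.2 CPM in old and 109, 282 and 396 in young and fell by 1.98 (SE 0.32, adjusted p = 0.00635). It was the 1 gene of 32 in the p53 list and of 22 in the BCL2 family list that passed, and those lists had medians of 0.14 and 0.13. Hist1h2ae, 1 of the replication-dependent histone H2A genes, rose by 2.44 (SE 0.56, adjusted p = 0.0356), the only one of 41 histone and histone processing genes to pass. Histone genes have near-identical copies, so its reads may be shared. The Hist1h2ae call held in 4 of the 12 leave-one-library fits.

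Stem and megakaryocyte genes had higher medians in old than in young controls, with medians near 0 in hets. The stem and multipotent progenitor list had 1 of 28 members that rose. By sign 22 were higher, against 6026 of all 10604 tested genes. The median of the list was 0.63, with 1.11 in controls and 0.04 in hets. That median was 0.22 without old control 1. The megakaryocyte list had none of 23 that passed and a median of 0.66, with 1.12 in controls and -0.02 in hets, and 1.03 without young het 2. Whether the list medians differ between genotypes was not tested. Esam, an endothelial-type adhesion molecule also carried by stem cells, read 2.63, 8.52 and 57.1 CPM in old and 0, 0.253 and 5.31 in young. Old control 1 held 57.1, and the change of 3.54 (SE 0.87, adjusted p = 0.0491) had an adjusted p of 0.264 without that library. Meis1 was at 388 CPM in old control 1 and between 25.7 and 53.4 in the other 11 libraries, and Hlf at 270 against 5.86 to 34.5. Both are stem cell transcription factors, and neither passed (1.51 (SE 0.47, adjusted p = 0.109) and 2.07 (SE 0.61, adjusted p = 0.0883)). Ly6a, which encodes the Sca1 protein used to exclude stem cells, was counted 762 times (69.8 CPM) in old control 1, 5 times in old control 2, 1 time in old het 1 and not at all in the other 9 libraries. Gng11, a G protein gamma subunit of platelets and endothelium, was at 30.9, 46.7 and 54.9 CPM in old and 7.39, 16.3 and 21.3 in young without overlap and rose by 1.69 (SE 0.35, adjusted p = 0.0257). Rgs18, a regulator of G protein signalling in the platelet lineage, rose by 1.21 (SE 0.28, adjusted p = 0.0394), kept in 2 of the 12 leave-one-library fits (up to an adjusted p of 0.125 without old control 1). Gng11 and Rgs18 are not on the megakaryocyte list, of which no member passed, and stand here as single genes. Of 19 tested genes from published lists of genes raised in aged stem cells, none rose and 1 fell (Zfp36), with a median of 0.54, which was 0.15 without old control 1 and 0.33 without young control 1. Their list's summed level had a median of 1128 CPM in old and 1718 in young libraries, with overlap. In the list of marrow stroma, endothelium and bone 1 of 7 tested genes rose, 6 were higher by sign and the median was 1.03 (1.17 in controls, 0.05 in hets; 0.66 without young control 1). The gene that rose was Vim, the vimentin filament gene of mesenchymal and blood cells, at 89.8, 127 and 180 CPM in old and 54.5, 64.8 and 73.2 in young without overlap (1.03 (SE 0.24, adjusted p = 0.0356)), and its call held in 2 of the 12 leave-one-library fits. The list summed to between 160 and 386 CPM in old and between 122 and 151 in young libraries, and the part of stromal or endothelial RNA in the results was not tested.

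Abca7, a phospholipid transporter, was at 24.6, 43.7 and 61.1 CPM in old and 73.6, 178 and 234 in young and fell (adjusted p = 0.00635), with changes of -2.40 in controls and -1.61 in hets. Tnpo2, an import receptor of the nuclear pore, fell by 1.61 (SE 0.27, adjusted p = 0.00864), and Pi16, a secreted peptidase inhibitor, by 2.28 (SE 0.43, adjusted p = 0.0159). These 3 kept their calls in all 12 leave-one-library fits. Eml4, a microtubule-binding protein, rose by 1.41 (SE 0.25, adjusted p = 0.0133) with 151, 202 and 263 CPM in old and 52.7, 66.0 and 130 in young. Sdha, the flavoprotein of succinate dehydrogenase, rose by 1.20 (SE 0.25, adjusted p = 0.026) and was the 1 of 88 nuclear genes of oxidative phosphorylation that passed. Slc2a9, a urate transporter, rose by 3.70 (SE 0.76, adjusted p = 0.0262), from 0, 0.862 and 6.80 CPM in young to 4.85, 16.7 and 32.0 in old. Zmiz1, a co-activator, rose by 1.60 (SE 0.34, adjusted p = 0.0288), and young het 1 (63.2 CPM) lay within the old range of 48.6, 69.6 and 101 CPM. The calls of Zmiz1, Sdha and Slc2a9 held in 4, 5 and 6 of the 12 leave-one-library fits. Usp9y is annotated to the Y but was counted in all 12 libraries, those with 0 Ddx3y counts included, so its change of -1.73 is uncertain.

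RNA of the mitochondrial genome and small nuclear and nucleolar RNA had lower medians in old than in young controls, and not clearly so in hets. Whether these medians differ between genotypes was not tested. All 10 tested mitochondrial messenger and ribosomal RNAs were lower (median -1.16; -2.36 in controls, -0.11 in hets) and mt-Nd4 passed (-1.86 (SE 0.46, adjusted p = 0.0481)). The mt-Nd4 call held in 3 of the 12 leave-one-library fits. Mitochondrial messenger RNA made up 1.10% ± 0.486 of counts in old and 3.13% ± 1.92 in young libraries (SD, n = 6; exact permutation test within genotype, 2-sided p = 0.03, adjusted over 7 classes p = 0.1225, smallest possible p 0.005). Young controls held the 3 highest shares, 5.28%, 5.58% and 3.07%. None of the 7 RNA classes passed after adjustment. Of 11 tested mitochondrial transfer RNAs 10 were lower and none passed (median -0.89, with -2.57 in controls and 1.13 in hets). A single member had the same sign in both genotypes. Among 56 tested small RNAs 3 fell and 1 rose (median -0.78; -2.09 in controls, 0.29 in hets; -0.40 without old control 1). SNORD86, a box C/D small nucleolar RNA, was counted 0 to 3 times in each old library and 4 to 110 times in each young one. It stood at 83.5, 83.3 and 32.1 CPM in young controls and 1.34, 4.35 and 5.46 in young hets, and its change was -6.66 (SE 0.93, adjusted p = 0.00192). Snord89 went the other way, with 0 counts in all 6 young libraries and 0 to 156 in the old, at least 72.6-fold higher against a floor of 3 counts over the 6 young libraries. Small RNAs have near-identical copies and host genes, so these counts are uncertain for any single locus.

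How far the 2 genotypes agreed was read from separate contrasts that share no library. Old and young controls differed in 740 genes (6.98%), 296 higher and 444 lower in old, and old and young hets in 1 gene, Fos. Hets had 666 of 10604 tested genes at an unadjusted p under 0.05, and the shared comparison had 1735. With no difference at all, a share of about 0.05 of tested genes would reach that level. DESeq2 called 15 genes in hets and 1295 in controls. Of the 740 control genes 503 (68.0%) had the same sign in hets, compared with 5937 of all tested genes (56.0%). The 296 rises had a median of 1.90 in controls and 0.27 in hets, and the 444 falls -1.95 and -0.22. These genes were chosen by their control changes, which favours larger medians in controls, so the gap does not measure a weaker effect in hets. Taking the 740 genes with the smallest p in hets instead, 543 (73.4%) had the same sign in controls. The 2 sets of 740 shared 116 genes, 15.7% of each, and 106 of these moved the same way. Over all tested genes the 2 changes had a Pearson r of 0.20 and a Spearman rho of 0.19, across genes, which are not independent replicates.

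**Figure D4:**
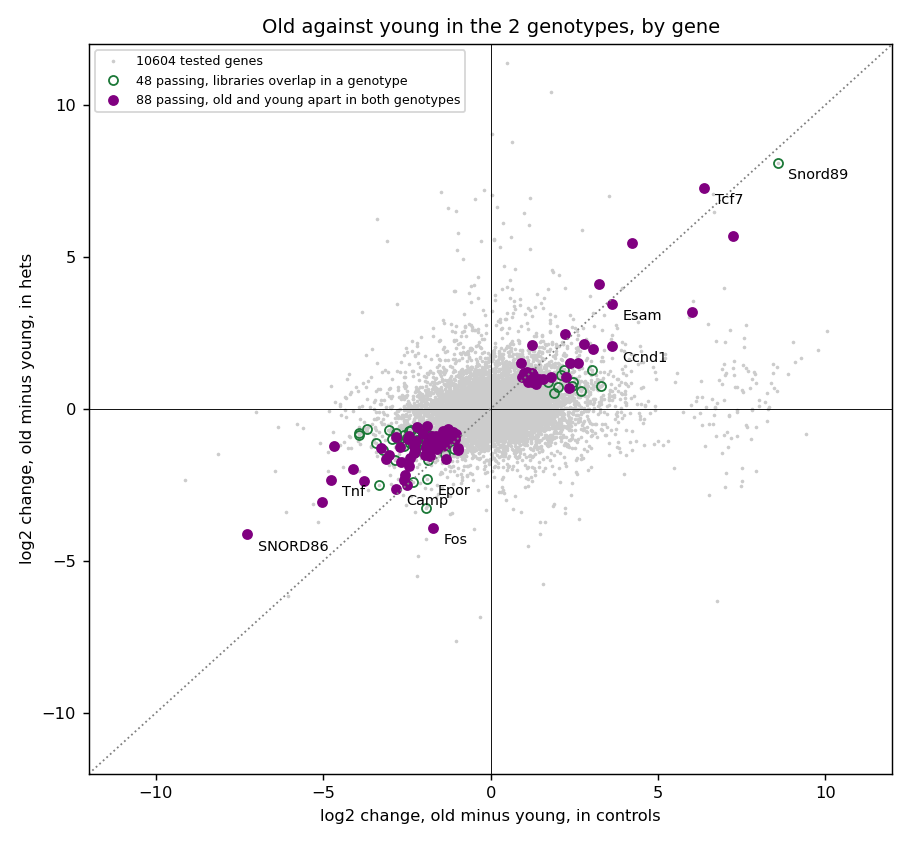
Log2 change, old minus young, in controls (horizontal) and hets (vertical) for each of 10604 tested genes; filled points are the 88 passing genes with old and young apart in both genotypes, open points the other 48 passing genes, and the dotted line marks equal change. All 136 passing genes lie in the 2 quadrants of equal sign, and 118 of them have the larger change in controls.

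The difference of the age effect between genotypes passed for 9 genes (0.0849%): Cebpd, Cnot3, mt-Tp, mt-Tq, Prkacb, Slbp, Snord49b, U1 and U3. Of these, 8 were lower in old controls and less so, or higher, in old hets, and U1 was also among the 136. Slbp encodes the protein that holds the 3′ end of histone messenger RNA, and it stood at 410, 673 and 420 CPM in young controls and at most 115 CPM in the other 9 libraries. Its changes were -4.19 in controls and 0.48 in hets, and the difference was 4.68 (SE 0.63, adjusted p = 0.00377). Cebpd, a C/EBP factor of granulocyte maturation and of the acute phase, had 0 counts in all 3 young controls and 9 to 207 counts in each other library. Old controls were at least 26.4-fold above young controls against a floor of 3 counts over that group. In hets the difference was -0.81. Slbp and U3 kept the call under all 16 alternatives computed for them, and each of the other 7 lost it under at least 7.

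**Figure D5:**
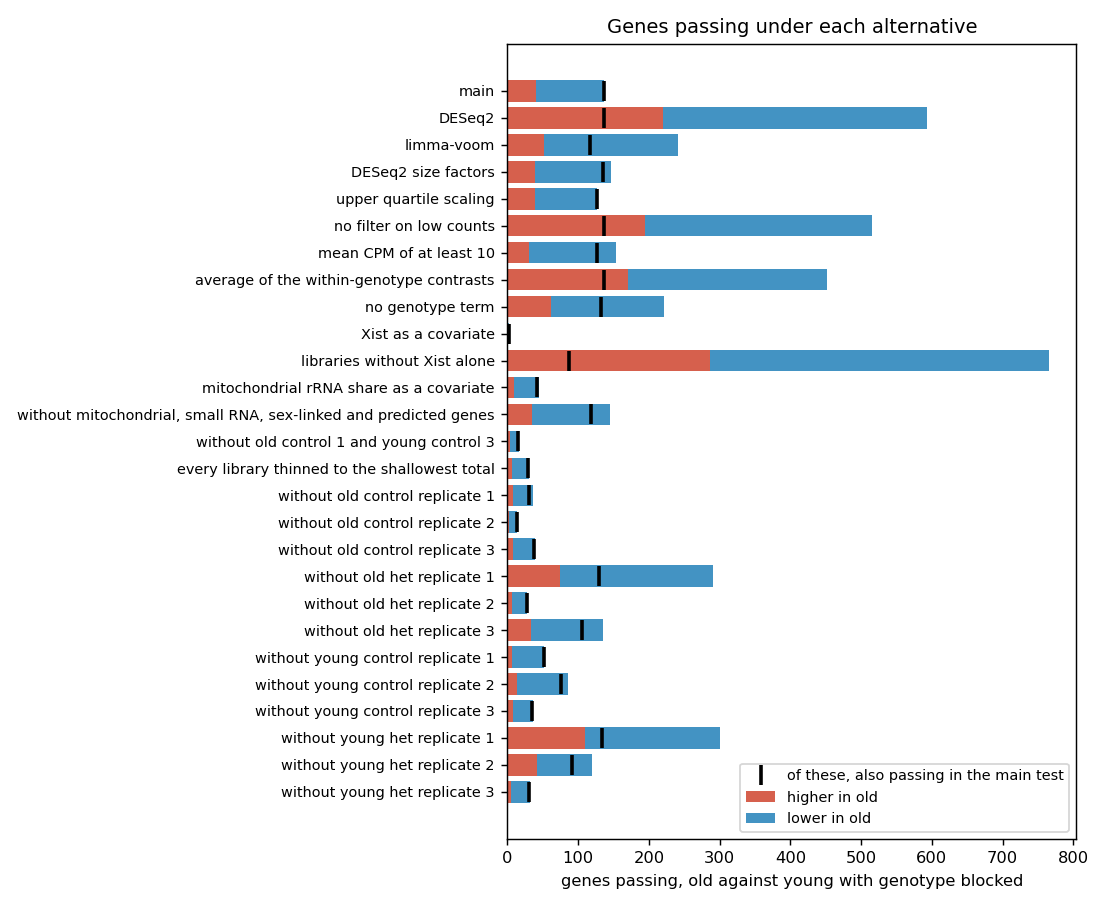
Number of genes passing in the shared comparison under the main test and 26 alternatives, split into genes higher (red) and lower (blue) in old, with a black mark at the number that also passed in the main test. The total runs from 2 with Xist as a covariate to 766 in the 7 libraries without Xist, and without old control 2 it is 14. Those 7 libraries hold no young het, so their bar compares controls alone.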

How the data were processed

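RNA of 12 libraries of sorted mouse bone marrow progenitors was analysed. The deposited values are raw counts per gene symbol from the authors' table of 33924 genes, made with a Lexogen 3′ kit per the labels' protocols. The submitters' processing notes name STAR 2.4, HTSeq 0.6.1, DESeq2 and build mm9. Of the annotation, the strand setting and molecular identifiers nothing is given there. Reads of near-identical, overlapping or antisense genes may therefore be mixed, and a floor covers only the error of counting.

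Groups were taken from the labels. Replicate numbers follow accession order and pair nothing. Counts were tested with edgeR 4.0.16 (R 4.3.3), using its quasi-likelihood F test after TMM scaling and filterByExpr (minimum count 10, minimum total 15; 10604 genes tested). The main design had genotype as a block (9 residual degrees of freedom). Contrasts within each genotype and their difference came from a fit of 4 group means (8). P-values were adjusted by Benjamini-Hochberg at 0.05. The SE is the absolute log2 change over the square root of F and is approximate. CPM uses TMM-scaled totals of the tested genes, and 3 counts stand for 0.275 to 5.10 CPM. No replicates looked like 1 library deposited again (chi-square over its degrees of freedom, 5.54 to 58.8). RNA class shares were compared by an exact permutation test within genotype.

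Named genes were, among passing genes apart in both genotypes, the 12 largest changes and the 12 smallest p in each direction, passing members and the next members by p of 46 gene lists, genes passing in both genotypes or in the difference of effects, and Wt1; exceptions are stated. Members and lists were chosen with earlier results of these data known. Promoter windows came from RefSeq (GRCm38.p6). They covered 66.2% of the passing genes, too few for a check of motifs over that set, and 4 of the 12 motifs listed, of 10 or more letters, are not shown. One member of the haem list, counted in its totals, is not reported here. Alternatives were DESeq2 1.42.0, limma-voom (limma 3.58.1), other scalings and filters, Xist or the mitochondrial rRNA share as a covariate, thinned counts and leaving out libraries. The steps were tested on simulated counts.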

Additional observations from a re-analysis of the deposited data

Results flagged for a closer look

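Within each age the 6 libraries were searched for a value standing apart from the other 5 by Dixon's criterion, over 90 genes and 7 RNA classes. Of 194 sets of 6 values 23 (11.9%) held such a value. The criterion gives about 1 in 20 for normal values of a single population. These sets hold unlogged values and pool both genotypes, so no excess over chance is read from the share. Old control 1 supplied 10 of them, each as the highest old library: Zfp36 at 299 CPM, S100a4 at 108, Esam at 57.1, Ltf at 107, Fosb at 10.3, Meis1 at 388, Hlf at 270, H2-Eb1 at 99.9, Ctla2a at 113 and Rgs18 at 182 CPM. This library was also the deepest and held 762 of the 768 Ly6a counts. The other old values were Tnf at 7.28 CPM in old het 1, Pax5 at 11.2 in old het 3, Alas1 at 172 in old control 2, and, in old control 3, Gata1 at 127, Slc4a1 at 4.86 and, as the lowest old value, Mcoln1 at 11.9. In young libraries they were Lrrc14 at 369 and Esam at 5.31 CPM in young control 1, Slc2a9 at 6.80 in young control 2, and Zmiz1 at 63.2 and Hlf at 27.9 in young het 1. Fan1 at 0.150 in young het 2 and H2-Eb1 at 1.19 in young het 3 also stood apart, over libraries at or near 0.

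The age effect differed between genotypes by the test of the difference itself for 9 genes, given as the het minus the control log2 change. The difference was -10.22 for Cebpd, where the 3 young controls had 0 counts and the fitted value depends on the prior count. It was 3.09 for Cnot3, 2.84 for Prkacb, 4.68 for Slbp, 2.96 for mt-Tp and 3.91 for mt-Tq. For the small RNAs it was 3.68 for Snord49b, 3.13 for U1 and 3.95 for U3. Apart from Cebpd, each of these genes had its highest level in a young control library.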

How the results depend on the processing

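The 136 genes of the shared comparison became 593 with DESeq2, 241 with limma-voom and 515 with no filter on low counts. They became 452 as the average of the within-genotype contrasts, 222 without the genotype term and 766 in the libraries without Xist, which compare controls alone. They became 2 when Xist was a covariate, 44 when the share of mitochondrial rRNA was, 17 without old control 1 and young control 3, and 31 with every library thinned to the shallowest total. Leaving out 1 library gave 14 to 301. The 740 genes in controls became 1295 with DESeq2 and 315 to 777 with a control library left out. The 1 gene in hets became 15 with DESeq2, 22 with no filter, 2 with the het libraries alone and 0 to 5 with a het library left out. Genes passing in both genotypes were 8 with DESeq2, 15 with no filter and 0 to 3 with a library left out. The 88 genes apart in both genotypes became 231 with DESeq2. The 9 genes of the difference became 296 with DESeq2, 2 with limma-voom, 216 with no filter and 2 to 294 with a library left out.

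None of the 90 genes followed changed sign under any alternative in which it was tested. These genes were chosen from the same libraries, most of which every alternative shares, so a kept sign was favoured in advance. Of the 60 that passed, 52 kept their call with limma-voom, 58 with upper quartile scaling, 60 with DESeq2 size factors, 36 in the libraries without Xist and 2 with Xist as a covariate. The cause of these differences was not tested, apart from the fewer libraries and counts that leaving out and thinning bring. No paired analysis was possible because the replicate numbers only follow accession order. The shallowest library, young control 2 with 645460 counts, limits what can be seen of genes below 5.10 CPM.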

Other observations

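Several lists not described above held few or no passing genes. Of 74 cytosolic ribosomal protein genes none passed (median log2 change 0.28; 0.59 in controls, 0.00 in hets; 0.16 without young control 3), and ribosomal protein messenger RNA made up 3.70% of counts in old and 3.08% in young libraries. Among 42 interferon response genes 1 rose, Irf8, which the monocyte list also holds (median 0.34; 0.90 in controls, -0.10 in hets; 0.03 without old control 1 and 0.20 without young control 1). The interferon list's summed level had a median of 6704.5 CPM in old and 7852 in young libraries, with overlap. In the lysosome and autophagy list Lamp2, a lysosomal membrane protein, rose by 1.19 (adjusted p = 0.0491) and Mcoln1, a lysosomal cation channel, fell by 1.47 (adjusted p = 0.0404), out of 39 tested. Their calls held in 4 and 3 of the 12 leave-one-library fits. Eosinophil genes had none of 7 that passed and a median of -1.05, which was 0.05 without young control 3, 0.28 with Xist as a covariate and 0.76 in the libraries without Xist. Of 13 basophil and mast cell genes none passed (median 0.58), and of 46 DNA methylation and chromatin regulators none passed (median 0.11). The basophil and mast cell list's summed level had a median of 1424 CPM in old and 1511 in young libraries, with overlap.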
